A study of Mus musculus with 8 samples.

Results

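The 10 genes described here encode subunits of voltage-gated calcium channels, and each is a gene named in a deposited table of Argonaute-bound RNA clusters from mouse forebrain. A cluster is a stretch of the genome on which the reads of the experiment overlap. A gene's clusters were taken as the rows whose 3' UTR, coding sequence (CDS), 5' UTR or intron entry gave exactly its symbol. These 10 genes are among 9962 genes named in those entries, and they hold 335 of 70142 clusters and 8663 of 1834586 reads, or 0.472% of the reads. Each cluster lies on the strand of its gene, and none of the 335 clusters names a second gene.

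The study applied HITS-CLIP, in which ultraviolet light crosslinks RNA to protein before immunoprecipitation, to FLAG-tagged Argonaute 2 (Ago2), the protein that carries microRNAs (miRNAs) to their targets. In 5 libraries the tagged protein was switched on in Camk2a-expressing forebrain neurons, in mice that carried Camk2a-cre beside Rosa-Stopfl/fl-Flag-Ago2. The 3 control libraries came from Rosa-Stopfl/fl-Flag-Ago2 mice, which carry the same silent Flag-Ago2 allele at Rosa26 and no Cre. The Flag-Ago2 libraries are labelled 1, 2a, 2b, 3a and 3b, and there were 3 experiments. They may therefore not be 5 independent replicates. All mice were 8 to 14 weeks old, the ultraviolet dose was 400 mJ per cm2, and each immunoprecipitation used part of 1 forebrain. The stated purpose was to find miRNA seed targeting in Camk2a neurons. The table gives 1 read count per cluster, with no column for a library or a group, and does not name the libraries that were pooled. Flag-Ago2 and control mice therefore could not be compared, no value below has a replicate spread, and no test was made.

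Voltage-gated calcium channels open on depolarization and let calcium into the cell, where it drives transmitter release, firing patterns and gene transcription. The alpha1 subunit forms the pore and sets the channel type: Cacna1a (P/Q-type), Cacna1b (N-type) and Cacna1e (R-type) serve mainly at nerve terminals and dendrites, Cacna1c and Cacna1d (L-type) couple activity to transcription, and Cacna1g, Cacna1h and Cacna1i (T-type) open near rest and shape rhythmic firing. Cacna2d1 encodes alpha2delta-1, an auxiliary subunit that raises channel numbers at the surface and binds gabapentin, and Cacnb4 encodes beta4, a cytoplasmic auxiliary subunit. An miRNA pairs with a target chiefly through its seed, bases 2 to 8 from its 5' end, and most studied sites lie in 3' UTRs.

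Every member had at least 1 exonic cluster (3' UTR, CDS or 5' UTR), but most of their clusters were intronic. Of the 335 clusters, 27 named a 3' UTR, 50 named CDS and no 3' UTR, and 258 named introns alone. That is 8.06% in 3' UTR for the members (95% Wilson interval 5.60 to 11.5), against 16.7% of 55507 other clusters named to a gene. Introns held 77.0% of the members' clusters (72.2 to 81.2), against 58.5% of the other clusters. The members have long introns, with a median of 240 kb a gene against 13.5 kb for all other protein-coding genes. Per kb of 3' UTR the members had 0.756 clusters, against 0.275 for all other protein-coding genes. That density was 0.301 for other genes with 5 kb or more of exon, 0.729 for sodium and HCN channel genes and 0.591 for potassium channel genes. The low 3' UTR share is thus not a low density of 3' UTR clusters. The depth of the members' exonic clusters was close to the rest: the median was 20 reads (quartiles 15 and 31) for the members and 21 reads (14 and 33) for other genes.

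Sequences of the sites that carry the findings in 3' UTRs are given first. The deposited miRNA columns count the 6 bases complementary to miRNA bases 2 to 7. A match counts where at least 1 of its bases lies in the cluster. By that rule, 25 of the members' 27 3' UTR clusters held a match for at least 1 of 30 miRNA families abundant in brain. The 7 mature miRNAs below (RefSeq, GRCm38.p6) have bases 2 to 8 in capitals. They belong to the 4 families whose words were in more than 3 of those clusters, 4 or 6 each, to miR-218, which had the most matches among 8 families in 3 clusters each, and to miR-27 and miR-153, which had a full 8-base match.
miR-125b-5p: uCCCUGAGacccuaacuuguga
miR-128-3p: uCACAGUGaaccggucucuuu
miR-103-3p: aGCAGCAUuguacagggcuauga
miR-138-5p: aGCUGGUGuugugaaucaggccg
miR-218-5p: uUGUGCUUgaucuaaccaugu
miR-27a-3p: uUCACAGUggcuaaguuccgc
miR-153-3p: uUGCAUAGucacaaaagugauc

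The next 3 sequences, each 24 bases of a GENCODE M21 transcript (mm10) read 5' to 3' on the gene's strand, are the members' 3' UTR matches that pair with bases 2 to 8 and are followed by A, called 8mers. The capitals mark the 6-base word that the deposited columns count.
Cacna1a miR-27 site, chr8:84640174-84640197, plus strand: ggcttgggaCTGTGAaatattgca
Cacna1b miR-153 site, chr2:24604828-24604851, minus strand: ccatagggcTATGCAacaaaagac
Cacna2d1 miR-103/miR-107 site, chr5:16370866-16370889, plus strand: gtgtgaataTGCTGCatcatctat

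The 6 miR-128 matches, which carry the word ACTGTG, are shown because they span 4 genes and include the deepest 3' UTR cluster of any member, that of Cacna1i with 98 reads.
Cacna1i (98 reads), chr15:80397723-80397746, plus strand: atgtgcctgACTGTGtggcttgga
Cacna1i (19 reads), chr15:80397470-80397493, plus strand: taattctacACTGTGtcctcagag
Cacna2d1 (36 reads), chr5:16371293-16371316, plus strand: caaaacacaACTGTGaccagttga
Cacna2d1 (21 reads), chr5:16371730-16371753, plus strand: tctgaatatACTGTGcaatgtaaa
Cacna1a (21 reads), chr8:84640173-84640196, plus strand: gggcttgggACTGTGaaatattgc
Cacna1d (15 reads), chr14:30040098-30040121, minus strand: gtctgtctgACTGTGcgacgtaac

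The 4 miR-125 matches of Cacna1i, with the word TCAGGG, are shown because that gene held more clusters with this family's word than any other member.
Cacna1i (30 reads), chr15:80396377-80396400, plus strand: gcaggaggcTCAGGGtgcagtttt
Cacna1i (18 reads), chr15:80397090-80397113, plus strand: atcctggggTCAGGGctttgtgag
Cacna1i (19 reads), chr15:80397369-80397392, plus strand: tctcagcctTCAGGGggcccctgt
Cacna1i (19 reads), chr15:80397422-80397445, plus strand: ttctccctaTCAGGGctctgaggc

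The paired miR-218 matches of Cacnb4, with the word AGCACA, show matches that lie close together in 1 cluster. Both pairs are given, and the matches of the second pair overlap at chr2:52434390.
Cacnb4 (15 reads), chr2:52429294-52429299 in capitals, minus strand: ggagaaagaAGCACAtttgttata
Cacnb4 (15 reads), chr2:52429280-52429285 in capitals, minus strand: atttgttatAGCACAaacttacaa
Cacnb4 (10 reads), chr2:52434390-52434395 in capitals, minus strand: aatttggcaAGCACAgcacagtat
Cacnb4 (10 reads), chr2:52434385-52434390 in capitals, minus strand: ggcaagcacAGCACAgtatctgct

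An exonic cluster was present in 10 of 10 members, where 35.7% of 21924 protein-coding genes had one. Members are long genes, with a median of 10.8 kb of exon, and 60.8% of the 7050 protein-coding genes with 5 kb or more of exon had an exonic cluster. A 3' UTR cluster was present in 9 of 10 members, against 21.5% of protein-coding genes. A CDS cluster was present in 10 of 10 members, against 26.9% of protein-coding genes. Intron-only clusters were present in 10 of 10 members, against 28.0% of protein-coding genes. Long genes had higher shares here too. Of 7040 other protein-coding genes with 5 kb or more of exon, 2729 had a 3' UTR cluster, 3413 a CDS cluster and 3846 an intron-only cluster. No member had a cluster in a 5' UTR without CDS or 3' UTR, a class seen in 3.29% of protein-coding genes. The members are genes known to be active in neurons, whereas the protein-coding genes include many that are silent in brain, so these shares do not set the members apart from other neuronal genes.

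**Figure D1:**
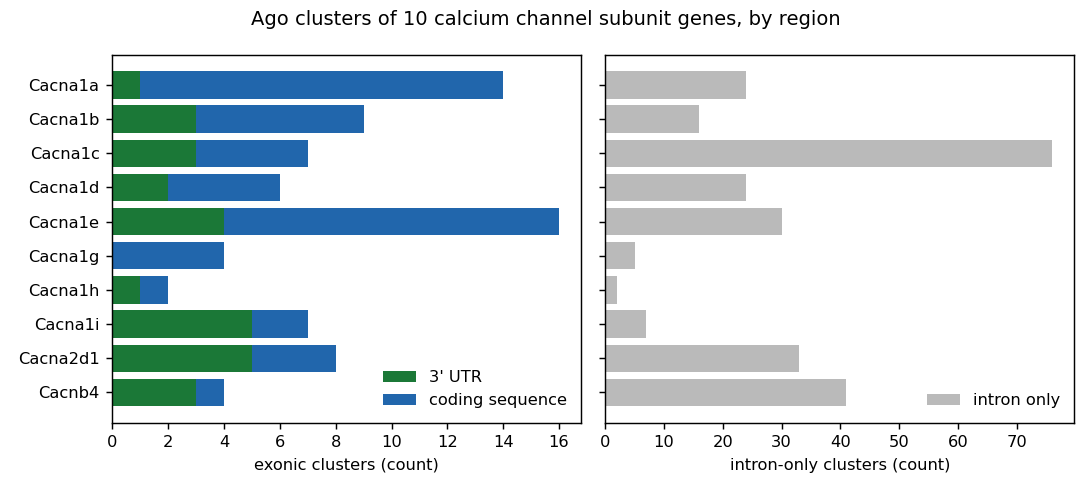
Clusters of each member by region, with exonic clusters on the left (green 3' UTR, blue coding sequence) and intron-only clusters on the right. Cacna1e and Cacna1a lead in exons with 16 and 14 clusters, and Cacna1c leads in introns with 76.

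The P/Q-, N- and R-type alpha1 genes, Cacna1a, Cacna1b and Cacna1e, held 39 of the 77 exonic clusters and 55.8% of the members' 2114 exonic reads. Their exonic signal lay mostly in coding sequence, which took 84.1% of those reads. In other clusters named to a gene, CDS also led, with 408369 reads against 296681 in 3' UTRs and 23618 in 5' UTRs. Per length the 3 genes differed. Cacna1e had 1.66 clusters per kb of CDS against 0.522 per kb of 3' UTR. Cacna1a had 1.83 against 1.86, and Cacna1b 0.819 against 1.12. In the T-type genes CDS took 36.5% of the exonic reads and in the auxiliary subunits 26.2%, so the 3' UTR held most of theirs as classes. In the T-type genes this rests on Cacna1i, with 181 of the 198 reads in 3' UTRs, since Cacna1g had all its exonic reads in CDS. The L-type genes stood between, with 58.7% in CDS.

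Cacna1e, the R-type pore subunit, had 16 exonic clusters with 593 reads, of which 12 clusters and 508 reads were in CDS. Its deepest, at chr1:154725811-154725963 on the minus strand, held 102 reads and was the only exonic cluster of any member with 100 or more reads. It lies in exon 1 and names both 5' UTR and CDS. Other deep CDS clusters of Cacna1e held 84 reads in exon 30, 64 and 33 reads in exon 20, 61 reads in exon 21 and 49 reads in exon 37. Exon numbers follow the annotated coding transcript of each gene with the longest 3' UTR. Exon 20, with 654 bases, is the longest internal exon of that Cacna1e transcript, and exon 21 is the next in length. The 4 clusters of Cacna1e that named a 3' UTR held 31, 30, 13 and 11 reads. They lay in the part of its 7.66 kb of 3' UTR sequence nearest the stop codon: 3 had their centres 421, 601 and 1252 bases after it, and that of 30 reads also named CDS.

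Cacna1a, the P/Q-type pore subunit, had 14 exonic clusters with 365 reads, 13 of them in CDS. The CDS clusters held between 10 and 56 reads and touched 14 different exons, from exon 3 to exon 46. The deepest held 56 reads at chr8:84462749-84462951 and reached 126 bases beyond exon 3. Clusters of 43 reads lay in exons 8 and 20, and 1 of 40 reads lay in exon 14. The single 3' UTR cluster, of 21 reads at chr8:84640130-84640260, reached 14 bases past the annotated end of the gene. That is the cluster with the overlapping miR-27 and miR-128 matches printed above.

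Cacna1b, the N-type pore subunit, had 9 exonic clusters with 221 reads. Its deepest CDS cluster held 61 reads at chr2:24679230-24679490 and lay wholly inside exon 19, which with 765 bases is the longest internal exon of its transcript. The other 5 CDS clusters held 10 to 22 reads. Its 3' UTR clusters held 38, 31 and 12 reads, and the deepest carries the miR-153 8mer printed above.

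The L-type genes had 13 exonic clusters, or 0.384 per kb of exon. Cacna1c, the L-type pore subunit most abundant in brain and heart, had 7 exonic clusters with 119 reads over 21.2 kb of exon. Its 3' UTR clusters held 23, 13 and 11 reads, and the first 2 of these, chr6:118591566-118591673 and chr6:118591675-118591765, are separated by 1 base. The deepest CDS cluster of Cacna1c held 31 reads in exon 10. Cacna1d had 6 exonic clusters with 157 reads. Of these, 1 cluster of 52 reads at chr14:30042058-30042177 names both CDS and 3' UTR, and 1 of 15 reads lies near the end of the 3' UTR, opposite the gene Chdh on the other strand. Its deepest cluster naming CDS alone among exons held 31 reads in exon 39.

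The T-type genes differed among themselves. Cacna1i had 7 exonic clusters, of which 5, with 181 reads, were in its 2.62 kb 3' UTR and 2, with 21 and 10 reads, in CDS. The 5 held 98, 30, 19, 18 and 16 reads, so the deepest, at chr15:80397688-80397812, stood well above the others. Its centre lay 2091 bases after the stop codon. Cacna1g had 4 exonic clusters with 20, 18, 17 and 15 reads, all in CDS, and none in its 0.754 kb 3' UTR. The deepest of Cacna1g lay, like that of Cacna1e, in exon 1 and named 5' UTR and CDS. Cacna1h had only 2 exonic clusters, of 17 reads (3' UTR) and 13 reads (CDS), neither of which reached 20 reads. The 3' UTR cluster of Cacna1h also named CDS, because the annotated transcripts end their reading frames at different places.

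Among exonic reads of the auxiliary subunits, 73.8% were in 3' UTRs. Cacna2d1 had 8 exonic clusters with 267 reads, and its 5 clusters in the 3' UTR held 90, 36, 30, 21 and 14 reads. The deepest, at chr5:16370809-16370978, centred 219 bases after the stop codon and held the miR-103/miR-107 8mer printed above, a miR-132/miR-212 match of 7 bases and a miR-125 match of 6 bases. Its 3 CDS clusters held 39, 26 and 11 reads. Cacnb4 had 4 exonic clusters with 80 reads: 40, 15 and 10 reads in the 3' UTR and 15 reads in CDS. The 40-read cluster of Cacnb4 lay 3842 bases into a 3' UTR of 6169 bases.

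**Figure D2:**
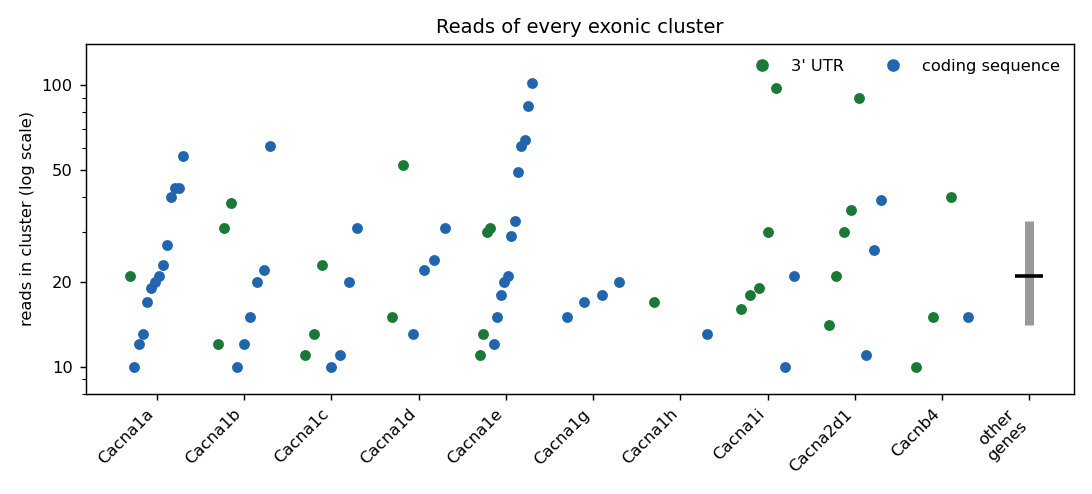
Reads of every exonic cluster of each member on a log axis, green for 3' UTR and blue for coding sequence, with the median (line) and quartiles (bar) of other genes' exonic clusters at the right. Most points of the members sit between 10 and 40 reads, and only 1 reaches 100.

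Per length of exon, Cacna1a was highest with 1.23 clusters per kb, then Cacna1b with 0.905, Cacna1i with 0.710, Cacna2d1 with 0.644 and Cacna1e with 0.634. Lower values were 0.475 per kb in Cacna1d, 0.446 in Cacnb4, 0.395 in Cacna1g, 0.330 in Cacna1c and 0.205 in Cacna1h. With exact 95% Poisson intervals, which cover counting error only, that of Cacna1a was 0.670 to 2.06 and that of Cacna1h 0.0248 to 0.740. All 9 pairs of neighbours in this order had overlapping intervals, and the intervals of all 9 other members overlapped that of Cacna1a. The order is therefore not resolved by these counts. Without clusters that carry a circRNA identifier, an alternative chosen after seeing the data, Cacna1a had 8 exonic clusters in place of 14, or 0.701 per kb, close to the 0.710 of Cacna1i. Pooled, the members had 0.585 exonic clusters per kb, against 0.263 for other protein-coding genes with 5 kb or more of exon. Sodium and HCN channel genes, taken as a comparison, had 0.715 per kb and potassium channel genes 0.557 per kb, so the members lay within the range of other ion channel families.

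In CDS alone, Cacna1a had 1.83 clusters per kb and Cacna1e 1.66, the highest values among the members. Pooled, the members had 0.814 per kb of CDS, against 0.353 over all other protein-coding genes. Other protein-coding genes with 5 kb or more of exon had 0.453, sodium and HCN channel genes 1.02 and potassium channel genes 0.798. The interval of Cacna1a in CDS (0.974 to 3.13) did not overlap that of Cacna1h (0.00358 to 0.787), whose single CDS cluster gave 0.141 per kb. These are the highest and lowest of 10 values, and the intervals of the 8 other members overlapped that of Cacna1a. Of the CDS clusters, 6 of 13 in Cacna1a and 3 of 12 in Cacna1e carried a circRNA identifier. The CDS values and intervals were not recomputed without them, so neither the lead of Cacna1a nor this separation was tested in that way. In 3' UTRs the highest values were 1.91 per kb in Cacna1i and 1.86 in Cacna1a, the second of which rests on 1 cluster in 0.538 kb. Over the 10 members, exonic cluster counts had a Spearman correlation of 0.58 with exon length, and intron cluster counts 0.83 with intron length. Both are descriptions over 10 genes that share the same libraries.

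**Figure D3:**
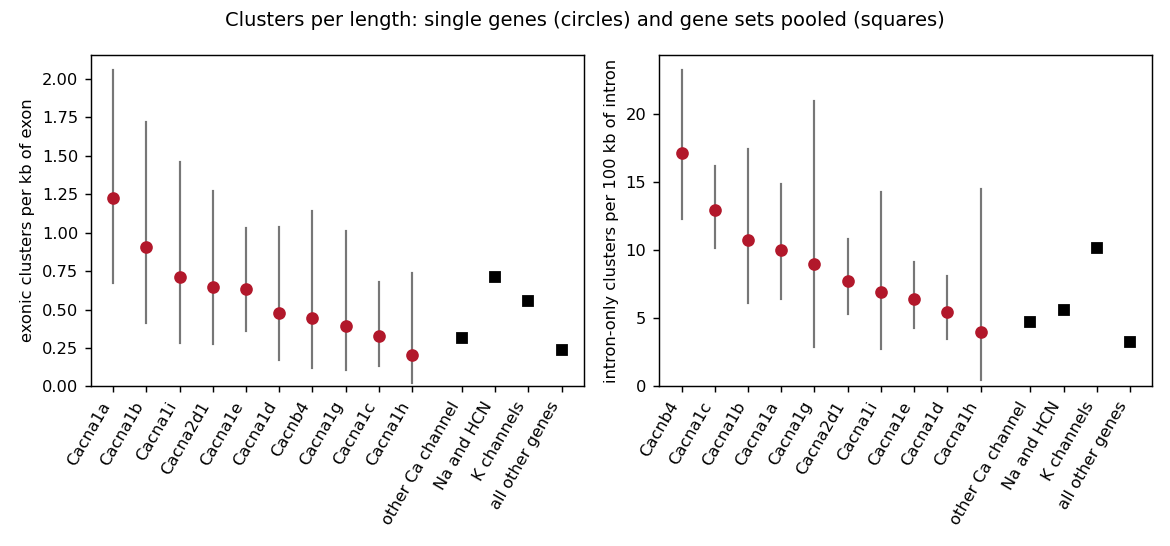
Exonic clusters per kb of exon (left) and intron-only clusters per 100 kb of intron (right), with circles for single members and lines for exact 95% Poisson intervals, then squares for other gene sets pooled without the members. The circles run from 0.205 to 1.23 per kb in exons and from 4.02 to 17.1 per 100 kb in introns.

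The members' CDS clusters often ran across exon edges. Of 50, only 9 lay wholly inside annotated exons and 41 reached beyond an exon, by a median of 34 bases and at most 185. The 5' edge alone was passed by 18, the 3' edge alone by 14 and both by 8, and the remaining 1 spanned a short intron between exons 42 and 43 of Cacna1a. In the deposited entries, 82.0% of the members' CDS clusters also named an intron, against 69.6% of other CDS clusters. A circRNA identifier was attached to 36.0% of the members' CDS clusters, against 26.7% of other CDS clusters, and 6 of the 18 concerned were in Cacna1a. None of the members' 3' UTR clusters had one. Reads that stem from spliced mRNA, unspliced transcripts or circular RNA cannot be told apart in these counts.

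Along the 3' UTR, 25 clusters could be placed on the annotated transcript by their centres. Cut into 3 equal parts, the 3' UTRs held 12 centres in the part nearest the stop codon, 5 in the middle and 8 in the part nearest the end. In Cacna1c and Cacna1e, which have the longest 3' UTRs here, none of the clusters lay in the distal part. Along the CDS, 41 centres could be placed, with 17, 14 and 10 in successive parts from the start codon.

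**Figure D4:**
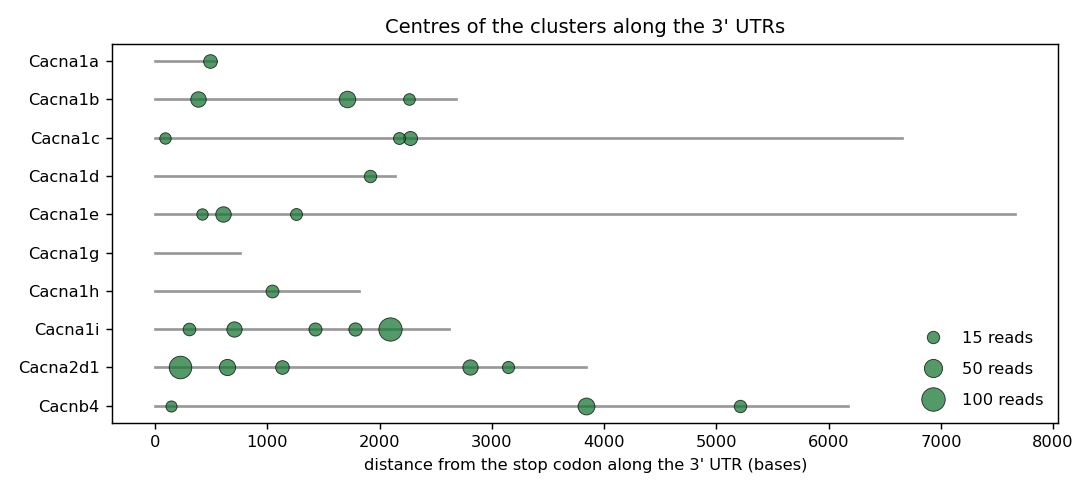
Centres of 3' UTR clusters (circles, area growing with reads) along the annotated 3' UTR of each member (grey line), in bases from the stop codon. Cacna1e has no cluster beyond 1252 bases of its 7662-base 3' UTR, whereas those of Cacna1i and Cacna2d1 are spread along theirs.

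Introns held 258 of the members' clusters with 6549 reads, and Cacna1c alone held 76 clusters and 38.0% of those reads. Only 2 of the 258 reached 100 reads, and both lay in intron 3 of Cacna1c, which is 272 kb long. They held 397 reads at chr6:118813103-118813222 and 349 reads at chr6:118840790-118840925, 27.6 kb apart. The first held no match for the 30 brain-abundant families, and the second held matches for miR-132/miR-212, miR-219 and miR-27. Together they made up 30.0% of the intronic reads of Cacna1c, whose next deepest intronic cluster held 76 reads. Intron 3 held 49 of the 76 clusters, or 18.0 per 100 kb, against 8.34 per 100 kb in the other introns of Cacna1c.

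Cacnb4 had 41 intron-only clusters with 964 reads, and 34 of these lay in its 198 kb intron 2. That intron is 82.4% of its intron length, and the density there was 17.2 per 100 kb, against 16.5 in its other introns. The deepest in Cacnb4 held 77 reads at chr2:52675319-52675519, 208 bases from an annotated exon. In Cacna2d1, which had 33 intron-only clusters with 690 reads, the longest intron held 14 of them and the deepest cluster had 56 reads. Cacna1e had 30 with 703 reads and a deepest of 68 reads in intron 6.

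Cacna1a and Cacna1d each had 24 intron-only clusters, with 482 and 539 reads and deepest clusters of 55 and 53 reads. Cacna1b had 16 with 376 reads, the deepest of 57 reads in intron 31. The T-type genes had the fewest: 7 in Cacna1i, 5 in Cacna1g and 2 in Cacna1h, with deepest clusters of 26, 48 and 23 reads. Most intronic clusters lay far from exons. Of the 258, 18, or 6.98%, came within 100 bases of an annotated exon, and the median distance was 6289 bases. The members have a median of 240 kb of intron a gene, and these distances were not measured for other genes. Some of the 18 lay wholly inside exons of the annotation used here, although their deposited entries name an intron alone. Examples are the clusters of 38 reads at chr8:84553483-84553668 in Cacna1a and of 35 reads at chr14:30045630-30045740 in Cacna1d.

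Per 100 kb of intron, Cacnb4 had 17.1 clusters (Poisson interval 12.3 to 23.2), Cacna1c 12.9 (10.2 to 16.2), Cacna1b 10.7, Cacna1a 9.98 and Cacna1g 8.98. Cacna2d1 had 7.72, Cacna1i 6.92, Cacna1e 6.40, Cacna1d 5.47 and Cacna1h 4.02. The interval of Cacnb4 did not overlap those of Cacna2d1, Cacna1e or Cacna1d, while all 9 neighbouring pairs overlapped. The members together had 9.35 per 100 kb, against 3.27 for all other protein-coding genes, 10.2 for potassium channel genes and 5.58 for sodium and HCN channel genes. Exonic and intronic cluster counts of the 10 members ran only loosely together, with a Spearman correlation of 0.33.

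Seed matches in 3' UTR clusters were common in members and in other genes. At least 1 of the 30 families matched in 92.6% of the members' 27 clusters (Wilson interval 76.6 to 97.9), against 82.3% of 9257 other 3' UTR clusters. The members' clusters were also wider, with a median of 172 bases against 144, and per kb they held 14.7 matches against 12.9. The clusters without a match were those of 23 reads in Cacna1c and 30 reads in Cacna1e. In CDS 86.0% of the members' clusters had a match, against 76.6% of other CDS clusters, and in introns 68.2% of theirs, against 70.2%. A match is a word in the sequence and does not show which miRNA was bound.

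Of the 30 families, 23 matched at least 1 member 3' UTR cluster, with 69 matches in all. The word of miR-125, TCAGGG, was in 6 clusters (22.2%) of Cacna1i, Cacna2d1, Cacna1c and Cacna1h, against 6.91% of other 3' UTR clusters, and 3 of the 6 belong to Cacna1i. The miR-128 word was in 6 clusters (22.2%) of Cacna1i, Cacna2d1, Cacna1a and Cacna1d, against 13.6% of others. The miR-138 word, ACCAGC, was in 1 cluster each of Cacna1b, Cacna1d, Cacna1e and Cacna2d1, or 14.8%, against 5.13% of others. The miR-103/miR-107 word, TGCTGC, was in 2 clusters of Cacna1i and 2 of Cacna2d1, or 14.8%, against 9.56% of others. In Cacna2d1, the match at chr5:16371970-16371975 runs past the end of its cluster at 16371971. The miR-218 word was counted in 3 clusters, 2 of Cacnb4 and 1 of Cacna1i, or 11.1%, against 6.97% of others. The Cacna1i match, at chr15:80396017-80396022, has only its first base in the cluster, which ends at 80396017. It is the only match of that 16-read cluster. Another 7 families were also in 3 clusters each, and miR-218 is named before them because it had 5 matches. All these families were picked by their counts in the 27 clusters, so their shares are a description.

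Words of several families overlap. ACTGTG of miR-128 shares 5 bases with CTGTGA of miR-27 and with TACTGT of miR-101, and TGCTGC of miR-103/miR-107 shares 5 with GCTGCT of miR-15/miR-16/miR-195. In Cacna1a and in Cacna2d1 (36 reads) the miR-128 and miR-27 matches are the same stretch shifted by 1 base, as the printed sites show. Matches for miR-137, miR-219, miR-23, miR-30, miR-383, miR-7 and miR-99/miR-100 were in none of the 27 clusters.

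By the flanking bases, 36 of the 69 matches were at least 7 bases long and 30 paired with bases 2 to 7 alone. The 36 comprised 18 that also paired with base 8, 13 with bases 2 to 7 followed by A, 3 8mers, and 2 followed by A in families whose base 8 was not at hand. The remaining 3 matches, in families of the same kind, could not be sized. A match of at least 7 bases was in 18 of 26 member clusters with full transcript sequence, or 69.2% (50.0 to 83.5), against 59.6% of 8307 other clusters. Of the 69 matches, 26 lay within 25 bases of the centre of their cluster, where the median cluster width was 172 bases. This was not measured in other genes' clusters, so no closeness to the centre can be read from it.

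**Figure D5:**
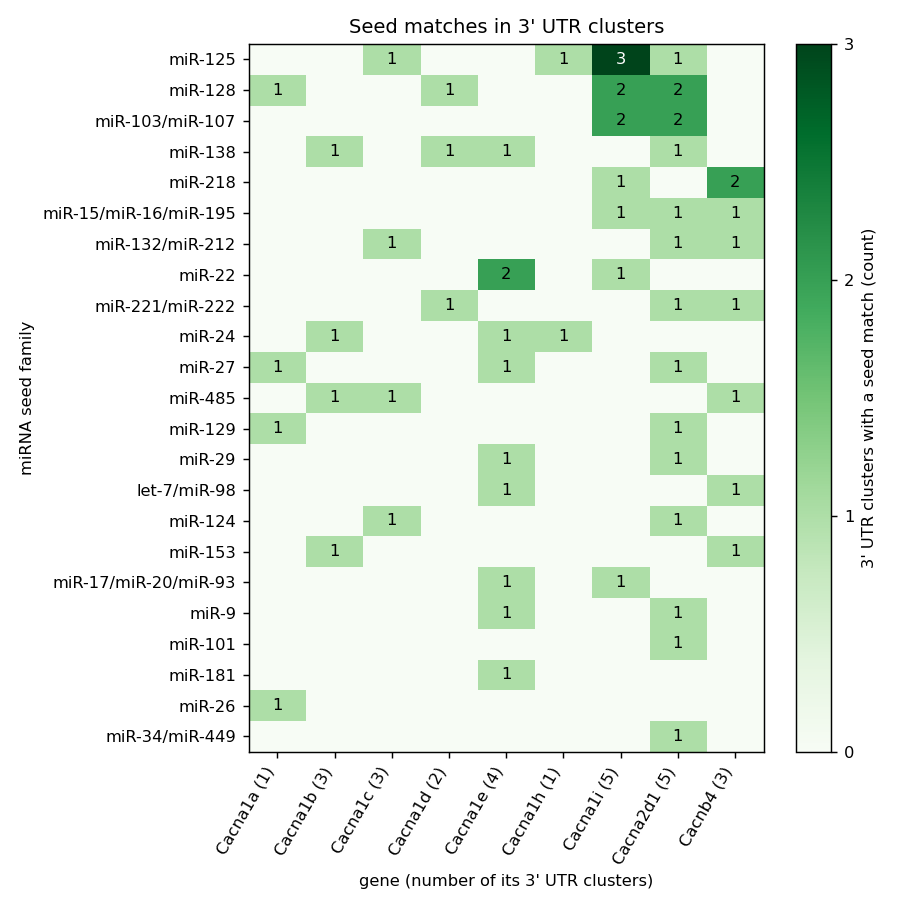
Number of 3' UTR clusters with a seed match, by miRNA family (rows) and member (columns, with its number of 3' UTR clusters in brackets). Cacna1i has miR-125 matches in 3 of its 5 clusters, and Cacna2d1 has matches for the widest set of families.

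Among 18 further calcium channel genes, 10 had an exonic cluster. The alpha1 genes Cacna1f and Cacna1s, known from retina and skeletal muscle, had no cluster of any kind. Of the alpha2delta genes, Cacna2d3 had 6 exonic clusters with 131 reads and 58 intron-only clusters with 1321 reads, Cacna2d2 had 2 exonic clusters with 37 reads, and Cacna2d4 had none. All 3 further beta genes had exonic clusters, led by Cacnb3 with 335 reads, of which 232 were in 1 cluster, and Cacnb1 with 159 reads. Of 8 gamma genes 3 had exonic clusters, led by Cacng2 with 71 reads and Cacng8 with 19 reads. The related genes Nalcn, a sodium leak channel, and Cachd1 had 157 and 28 exonic reads. Pooled, the members had 0.585 exonic clusters per kb of exon, against 0.315 for these 18 genes. The members and this list were chosen with earlier results of these data known. The difference therefore cannot be told apart from that choice.

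Markers of cell types show what else the table holds. Exonic clusters were present for 6 of 6 excitatory forebrain neuron markers, with 20 to 618 reads a gene, and for 6 of 6 astrocyte markers, with 58 to 1105 reads. They were also present for 2 of 5 interneuron, 4 of 5 oligodendrocyte, 2 of 5 microglia, 3 of 4 endothelial and 2 of 5 red blood cell markers, and no cluster of any kind was present for 3 cerebellar granule cell markers. The 2 red blood cell markers, Hba-a1 and Hba-a2, had identical counts of 5 exonic clusters and 303 reads, and may be the same clusters. Which cells the members' reads come from was not tested.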

How the data were processed

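FLAG-Ago2 HITS-CLIP libraries of mouse forebrain (5 Flag-Ago2, 3 control) were sequenced, and reads were aligned to mm10 with BWA, per the submitters' processing notes. Neither the labels nor the file name the BWA version, the cluster caller, the libraries pooled or the treatment of duplicate reads. The authors deposited a single table of 70142 clusters. Per the file headers it holds a read count per cluster, gene names by region, circRNA identifiers and 1281 miRNA columns of seed match counts. The lowest read count is 10. A test of Flag-Ago2 against control libraries had been planned for a table with library columns. It was not run, because 0 columns belong to 1 library, so depth per library is unknown, and all values are descriptions.

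A cluster that named several regions of a gene was counted once: as 3' UTR before CDS, then as 5' UTR and last as intron. Coordinates are 1-based on mm10. Lengths are unions of GENCODE M21 exons (GRCm38, the same assembly), and intron length is gene span minus exons. For all 30 miRNA families, the 6-base word explained the deposited count in 13654 of 13654 clusters with full transcript sequence. A word was counted where at least 1 of its bases lay in the cluster, so some counted words lie mostly outside. No genome sequence was used, so sequence was read only within annotated transcripts. Shares have 95% Wilson intervals and densities exact 95% Poisson intervals. Both cover counting error of clusters only, since no value has a replicate spread. Reads were amplified without molecular identifiers. The counting steps were tested on simulated data. Python 3.11.15, pandas 2.3.3, numpy 2.4.6, scipy 1.17.1 and matplotlib 3.10.9 were used.

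The members and all gene and family lists were chosen with earlier results of these data known. Named are all members, all their 3' UTR clusters, each member's deepest CDS and intron cluster, every cluster of 100 or more reads, the 5 leading families (the fifth, miR-218, by its matches among families tied on clusters), and the 2 genes with most reads in each further subunit class. Further clusters and families named in the text were picked with their values in view. The alternatives were a minimum of 20 reads, other region and length rules, longer seed matches and leaving out circRNA or multi-gene clusters.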

Additional observations from a re-analysis of the deposited data

Results flagged for a closer look

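Clusters on the strand opposite to a member and naming no gene in sense lie outside the counts above. There were 2 opposite Cacna1a (35 reads together), 1 opposite Cacna2d1 (10 reads) and 4 opposite Cacnb4 (65 reads). Each held 10 to 25 reads. They are given because they are signal in a part of the table that the comparisons do not use, and with no control column their level in control mice is unknown. A further 3 antisense clusters, opposite Cacna1c and Cacna1d, name Dcp1b or Dcp1a in sense.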

How the results depend on the processing

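Of 18 alternatives for the pooled values, 13 left them close to the main value and 5 moved them. Close means within 1.5 times the main value or, for the 3' UTR share, inside its Wilson interval. All 5 come from a minimum of 20 reads, which keeps fewer clusters by construction: 43 exonic clusters instead of 77, 126 intron-only clusters instead of 258, a median of 31 reads per exonic cluster, 12 3' UTR clusters with a seed match (of 14), and 0.327 exonic clusters per kb. Under that minimum Cacna1h kept 0 exonic clusters, and Cacna1g and Cacnb4 kept 1 each. For single members, 22 of 80 alternatives moved the value, and under that minimum 16 of 20 did. Counting every overlap, weighting by reads, a minimum of 20 reads or leaving out circRNA clusters gave a 3' UTR share of 7.07% to 10.9%. With the longest transcript as length the pooled density was 0.790 per kb, and those of Cacna1c (0.532), Cacna1e (1.07) and Cacna2d1 (1.08) were over 1.5 times the main values. Leaving out circRNA clusters, chosen after seeing the data for densities, gave 0.449 per kb pooled and 0.701 for Cacna1a. No paired analysis was possible because the table has no column for a library, and for the same reason no library could be left out. The read minimum of 10 hides shallower clusters, so a member without a cluster in a region, such as Cacna1g in the 3' UTR, may have fewer reads there than the table lists.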
